A study of Drosophila melanogaster with 15 samples.

Results

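The transcripts described here encode 10 peptide hormones of the *Drosophila* midgut: *AstA*, *AstC*, *Tk*, *NPF*, *Dh31*, *CCHa1*, *CCHa2*, *Mip*, *Orcokinin* and *ITP*. They were chosen by name, as genes known to encode gut peptide hormones, and not by any measured value. Earlier results of these data were, however, known when the choice was made. All 10 were found among the 12133 entries of the expression table, and all 10 were among the 9787 entries tested. Transcript levels were measured by bulk mRNA-sequencing in midguts of *w1118* larvae, a white-eyed laboratory strain, at 3 stages with 5 biological replicates each, 15 libraries in all. All larvae shared this genotype and ate only yeast, and their sex was not determined. Early L2 libraries pooled 60 midguts dissected at day 2, late L2 libraries pooled 30 midguts from day 3, and early L3 libraries pooled 10 midguts from day 4. Age, stage and the number of midguts per pool changed together and cannot be told apart. The question was whether the hormone transcripts decline together as the larva grows.

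Enteroendocrine cells are scattered secretory cells of the gut epithelium, few in number among the large absorptive enterocytes. They make peptide hormones as longer precursors, which are cut by prohormone convertases, amidated at their ends, packed into dense-core vesicles and released toward the hemolymph in response to food. Their hormones act on gut muscle, on enterocytes and on distant organs such as the brain, the fat body and the insulin-producing cells. Most of these hormones are also made by neurons.

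The deposited levels are CPM, each gene's share of the reads of its library brought to a common total. Library totals ran from 23981806 to 33902298 reads, and a hormone gene had between 45 and 1871 reads in a library. A gene was called changed at a Benjamini-Hochberg adjusted p under 0.05 when its log2 fold change also reached 0.5 in either direction, in a limma fit on log2(CPM + 0.5) over all 15 libraries. Fold changes are on this scale, which understates changes of low genes, and the error after ± is the SD of 5 libraries. Late L2 replicate 4 stood apart from its stage, with a score of -5.63 on the first principal component of all tested entries against -24.6 to -16.6 in the other 4 late L2 libraries. Early L3 replicate 1, at 31.6, stood apart from the other 4 early L3 libraries, at 45.1 to 59.4. Early L3 replicate 2 had more neuronal transcript than any other library, and 4 libraries carried over 20 CPM of fat body and hemocyte markers, with the values given beside the results they touch.

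The hormone transcripts did not all decline. Between early L2 and early L3, *Orcokinin*, *NPF*, *Dh31*, *CCHa1*, *Tk* and *AstC* fell, *ITP* rose, and *AstA*, *CCHa2* and *Mip* were not called. In early L3 the mean CPM of the 6 that fell was between 37.6% (*NPF*) and 51.9% (*AstC*) of that in early L2, whereas *AstA* retained 85.3%, *CCHa2* 94.6% and *Mip* 116%. *ITP* reached 157% of its early L2 level. In bulk tissue, fewer hormone-producing cells and less hormone mRNA per cell cannot be told apart, and neither can be told from growth of the other cells in the library.

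Of the 10 genes, 6 were called lower, against 24.3% of all entries tested, and 1 was called higher, against 9.86% (limma, early L3 versus early L2). The median log2 fold change was -0.93 over the 10 genes and -0.15 over all entries. The 5 early L3 values lay below all 5 early L2 values in the same 6 genes, which was so for 32.2% of all entries, and above them in *ITP* alone, against 16.2% of all entries. Scaling by median ratios in place of library totals moved the median of all entries from -0.15 to -0.01 and the calls over all entries from 2378 lower and 965 higher to 1816 lower and 1378 higher. With that scaling the median of the 10 genes was -0.79, and the counts of 6 lower and 1 higher did not change.

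**Figure D1:**
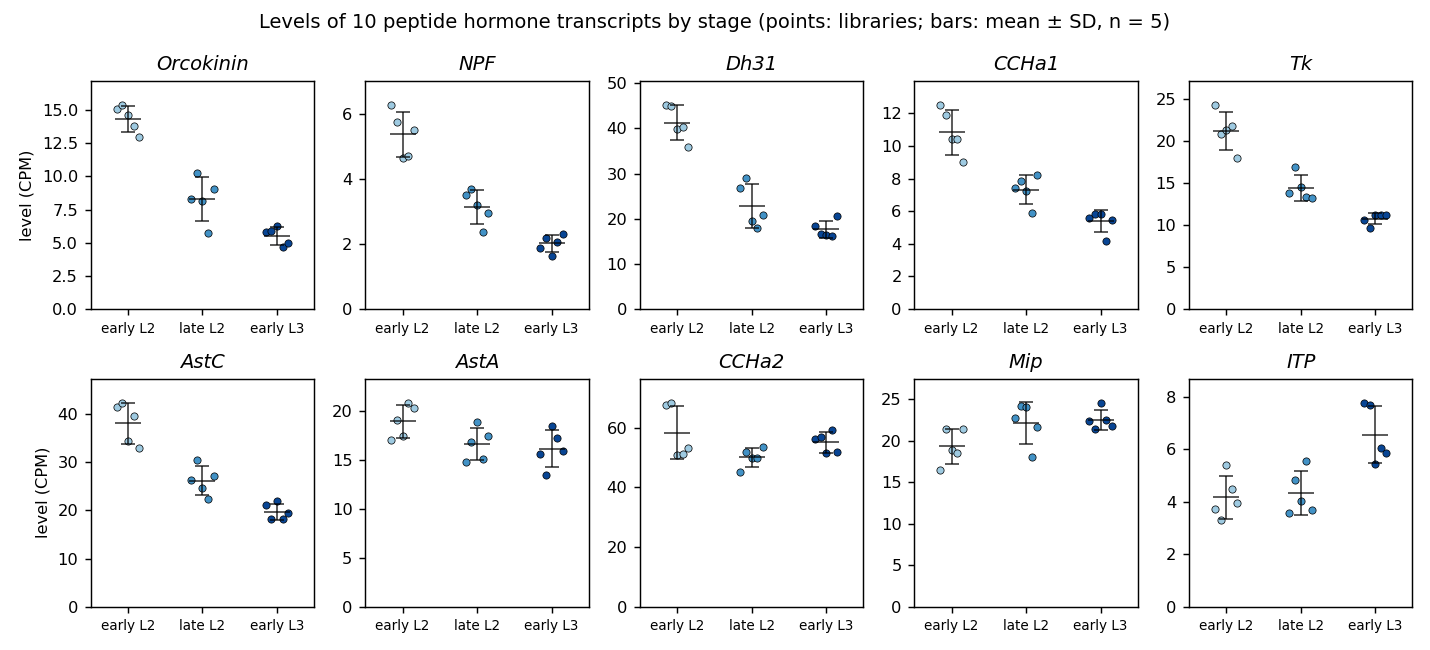
Level of each hormone transcript (CPM, linear axes from 0) in the 5 libraries of each stage, with replicates 1 to 5 from left to right within a stage and bars for the mean ± SD. Genes are ordered by their fold change between early L2 and early L3. The first 6 panels descend without overlap between early L2 and early L3, *AstA*, *CCHa2* and *Mip* overlap, and *ITP* is highest in early L3.

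*Tk* encodes the tachykinins, which in the adult midgut restrain lipid synthesis in enterocytes. The gene lies on chromosome 3R, from 11994175 to 12005473 of BDGP6.54 on the minus strand. Its levels in replicates 1 to 5 were 24.2, 20.8, 21.3, 21.8 and 17.9 CPM in early L2. They were 13.8, 16.9, 14.5, 13.3 and 13.2 CPM in late L2, and 10.6, 9.67, 11.2, 11.1 and 11.2 CPM in early L3. No 2 stages overlapped, and the early L3 libraries were the most alike, with a coefficient of variation of 6.17% against 10.7% in early L2. *Tk* fell by 0.94 on the log2 scale between early L2 and early L3 (95% interval -1.12 to -0.77, limma adjusted p = 1.49e-07).

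*NPF* encodes neuropeptide F, a relative of vertebrate neuropeptide Y that is produced by midgut endocrine cells as well as by the brain. It is located on chromosome 3R, from 16609220 to 16611325 on the plus strand. It measured 6.26, 5.75, 4.64, 4.69 and 5.50 CPM in early L2, 3.51, 3.70, 3.20, 2.37 and 2.94 CPM in late L2, and 1.88, 2.19, 1.64, 2.07 and 2.30 CPM in early L3. The stages were again separate, and the highest early L3 library lay just under the lowest late L2 library. *NPF* fell by 1.22 between early L2 and early L3 (95% interval -1.47 to -0.97, limma adjusted p = 3.58e-07). With a mean of 62.2 reads per early L3 library, counting alone would give a coefficient of variation of 12.7%, and 13.1% was observed.

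*Dh31* encodes a calcitonin-like diuretic hormone that also stimulates contraction of the larval gut. Its locus is on chromosome 2L, from 8491868 to 8506845 on the minus strand. Early L2 libraries held 45.1, 45.0, 39.9, 40.3 and 36.0 CPM, late L2 libraries 26.8, 29.1, 19.5, 17.8 and 20.8 CPM, and early L3 libraries 18.4, 16.7, 16.4, 16.1 and 20.6 CPM. Late L2 was the most variable stage, with a coefficient of variation of 21.3%, where replicates 3 and 4 lay within the early L3 range and replicate 5 just above it. The log2 fold change between early L2 and early L3 was -1.20 (95% interval -1.46 to -0.95, limma adjusted p = 4.84e-07).

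*AstC* encodes a somatostatin-like allatostatin, which the adult gut releases during starvation. The gene lies on chromosome 2L, from 11076165 to 11081399 on the minus strand. It stood at 41.3, 42.2, 34.3, 39.6 and 32.8 CPM in early L2, at 26.2, 30.5, 24.5, 22.4 and 27.1 CPM in late L2, and at 21.0, 18.2, 21.8, 18.1 and 19.5 CPM in early L3. Early and late L2 were separated by a gap, while late L2 replicate 4 came close to the highest early L3 library. The log2 fold change between early L2 and early L3 was -0.93 (95% interval -1.12 to -0.73, limma adjusted p = 3.72e-07).

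*Orcokinin*, whose peptides are made by endocrine cells of the midgut and by neurons in *Drosophila*, retained 38.5% of its early L2 mean CPM in early L3, next to *NPF* at 37.6%. It is located on chromosome 2R, from 23946959 to 23949076 on the minus strand. Its levels were 15.04, 15.3, 14.6, 13.8 and 12.9 CPM in early L2, 8.33, 10.2, 8.16, 5.71 and 9.06 CPM in late L2, and 5.78, 5.88, 6.29, 4.69 and 4.98 CPM in early L3. Late L2 replicate 4 lay among the early L3 libraries, and the other 4 late L2 libraries lay above them. The log2 fold change between early L2 and early L3 was -1.31 (95% interval -1.57 to -1.05, limma adjusted p = 2.62e-07).

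*CCHa1* encodes CCHamide-1, which in adults is released from the gut after protein-rich food and acts on sleep. Its locus is on chromosome 3R, from 14092504 to 14096835 on the minus strand. Its libraries held 12.5, 11.9, 10.4, 10.4 and 9.02 CPM in early L2, 7.44, 7.82, 7.21, 5.88 and 8.21 CPM in late L2, and 5.61, 5.85, 5.85, 4.18 and 5.49 CPM in early L3. Early L3 replicate 4 was low for its stage, and late L2 replicate 4 was only just above early L3. *CCHa1* fell by 0.94 between early L2 and early L3 (95% interval -1.18 to -0.71, limma adjusted p = 2.36e-06).

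*AstA* encodes allatostatin A, which suppresses feeding and acts through galanin-like receptors. The gene lies on chromosome 3R, from 24760530 to 24765071 on the minus strand. It measured 17.1, 19.1, 17.4, 20.8 and 20.3 CPM in early L2, 14.8, 16.9, 18.9, 15.1 and 17.4 CPM in late L2, and 15.6, 13.5, 18.5, 17.3 and 15.9 CPM in early L3. All stages overlapped. Its log2 fold change between early L2 and early L3 was -0.23 (95% interval -0.42 to -0.04, limma adjusted p = 0.0362), under the minimum size for a call.

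*CCHa2* encodes CCHamide-2, a nutrient-dependent signal from the larval gut and fat body that promotes release of insulin-like peptides in the brain. It is located on chromosome 3R, from 13389059 to 13395197 on the minus strand. It was at 67.7, 68.3, 51.0, 51.3 and 53.4 CPM in early L2, at 45.2, 51.9, 49.9, 49.9 and 53.5 CPM in late L2, and at 56.1, 57.0, 51.4, 59.3 and 51.8 CPM in early L3. Early L2 replicates 1 and 2 exceeded all other libraries, and the remaining 13 lay together. The log2 fold change between early L2 and early L3 was -0.07 (95% interval -0.25 to 0.11, limma adjusted p = 0.495).

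*Mip* encodes the myoinhibitory peptides, which dampen muscle contraction and are ligands of the sex peptide receptor. Its locus is on chromosome 3L, from 17344947 to 17349666 on the minus strand. It stood at 16.5, 21.4, 18.9, 18.5 and 21.5 CPM in early L2, 22.8, 24.2, 24.05, 18.1 and 21.7 CPM in late L2, and 22.4, 21.4, 24.5, 22.5 and 21.8 CPM in early L3. Each pair of stages overlapped, but early L2 and early L3 only narrowly. The highest early L2 library held 21.48 CPM and the lowest early L3 library 21.43 CPM. The log2 fold change between early L2 and early L3 was 0.22 (95% interval 0.04 to 0.40, limma adjusted p = 0.0341), opposite in sign to those of the 6 genes that fell and too small for a call.

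*ITP* encodes ion transport peptide, an antidiuretic hormone of the crustacean hyperglycemic hormone family. It measured 3.72, 3.29, 5.39, 4.48 and 3.95 CPM in early L2, 3.58, 4.84, 4.01, 5.54 and 3.68 CPM in late L2, and 7.76, 7.67, 5.45, 6.06 and 5.87 CPM in early L3. Early L3 lay above early L2, narrowly, and overlapped with late L2. *ITP* rose by 0.60 between early L2 and early L3 (95% interval 0.30 to 0.90, limma adjusted p = 0.00159). Its highest libraries were early L3 replicates 1 and 2, of which replicate 1 had the highest sum of fat body and hemocyte markers (90.1 CPM) and replicate 2 the highest sum of neuron markers (25.8 CPM). Without the 4 libraries over 20 CPM of fat body and hemocyte markers (late L2 replicate 4 and early L3 replicates 1, 2 and 4), a run chosen after seeing the data, the *ITP* change was 0.42 (limma adjusted p = 0.0516) and no longer called, whereas the count of genes called lower remained 6. *ITP* lies on chromosome 2R at 24537421 to 24558961 of BDGP6.54, and 296 of its exon bases overlap *CG4622* on the other strand. The library kit was stranded, but whether counting used the strand is not given in the sources used here. *CG4622* was at 8.98 ± 0.784 CPM in early L2 and 7.66 ± 1.18 CPM in early L3 (log2 fold change -0.23, limma adjusted p = 0.0574). The values of *ITP* pool 5 annotated transcripts.

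**Figure D2:**
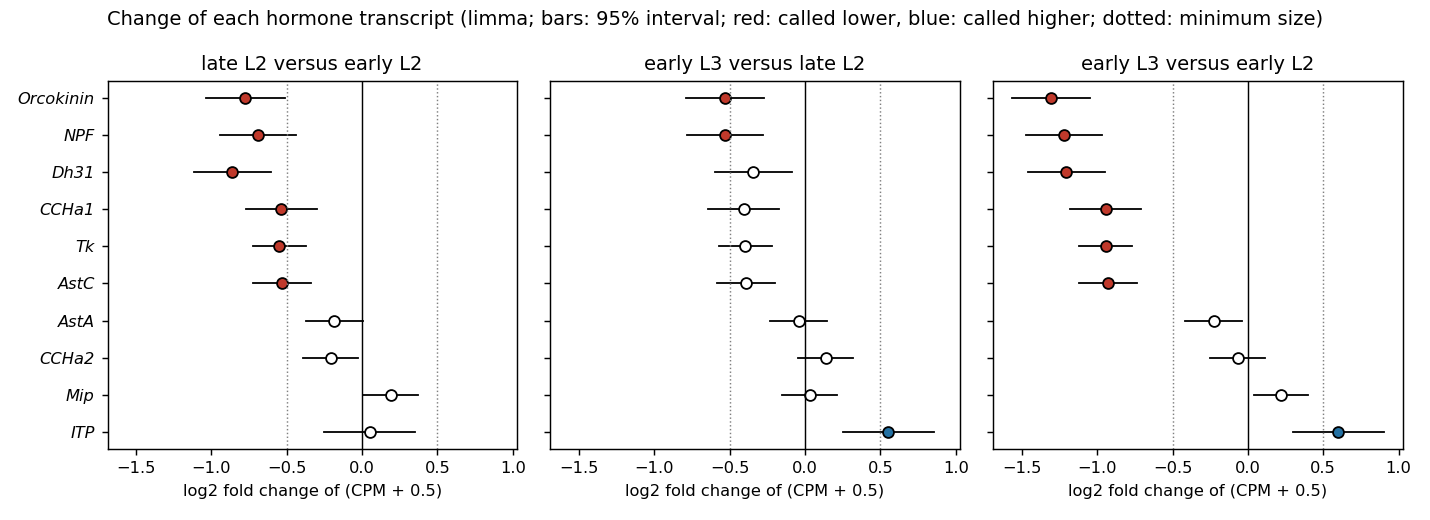
Log2 fold change of (CPM + 0.5) for each hormone gene in the 3 comparisons of stages, with 95% intervals from limma. Red points were called lower, blue points were called higher, white points were not called, and dotted lines mark the minimum size of 0.5. The 6 genes at the top lie left of 0 in every comparison, while *AstA*, *CCHa2* and *Mip* stay within 0.5 of 0 throughout and *ITP* lies above 0.5 in the comparisons with early L3.

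The 3 comparisons share libraries, so their values are set side by side and are not independent. During the L2 stage 6 hormone genes fell, against 6.51% of all entries called lower in late L2 versus early L2, and 0 rose, against 3.38% of all entries. The log2 fold changes were -0.86 for *Dh31* (limma adjusted p = 0.000109), -0.77 for *Orcokinin* (limma adjusted p = 0.00029) and -0.69 for *NPF* (limma adjusted p = 0.000547). *Tk* followed at -0.55 (limma adjusted p = 0.000213), *CCHa1* at -0.54 (limma adjusted p = 0.00216) and *AstC* at -0.53 (limma adjusted p = 0.000504). In all 6 genes late L2 lay wholly below early L2, which was so for 8.68% of all entries. The median was -0.53 over the 10 genes and 0.01 over all entries. Beside the count of 0 higher by limma, 1 gene was higher at an unadjusted p under 0.05 (*Mip*, 0.19), and edgeR and DESeq2 each called 0. The calls of *AstC* and *CCHa1* rested on late L2 replicate 4, without which their log2 fold changes were -0.48 and -0.47. That library carried 48.8 CPM of fat body and hemocyte markers. The call of *AstC* was also lost without early L2 replicate 2 (-0.49), that of *CCHa1* without early L2 replicate 1 (-0.49) and that of *Tk* without early L2 replicate 1 (-0.50). In each of these runs the adjusted p stayed under 0.05 and the change fell short of the minimum size.

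Between late L2 and early L3, *NPF* and *Orcokinin* were called lower, which makes 2 of 10 genes against 18.7% of all entries, and *ITP* was called higher, 1 of 10 against 6.45%. Both counts lay near these shares. The log2 fold changes were -0.53 for *NPF* (limma adjusted p = 0.00135), -0.53 for *Orcokinin* (limma adjusted p = 0.00168) and 0.55 for *ITP* (limma adjusted p = 0.00384). *CCHa1* at -0.41, *Tk* at -0.39, *AstC* at -0.39 and *Dh31* at -0.34 passed the adjusted p but not the minimum size. The early L3 libraries of *AstC*, *Tk*, *NPF* and *CCHa1* lay below all late L2 libraries, 4 of 10 genes against 28.3% of all entries. The median was -0.37 over the 10 genes and -0.11 over all entries. These calls were sensitive to the scale: median-ratio scaling moved the median of all entries from -0.11 to 0.02 and the calls over all entries from 1829 lower and 631 higher to 1283 lower and 978 higher. With that scaling *NPF* stood at -0.41 and *Orcokinin* at -0.39, so 0 hormone genes were called lower. *NPF* was also below the minimum size when late L2 replicate 1 (-0.49) or 2 (-0.47), or early L3 replicate 3 (-0.47), was left out. *Orcokinin* was below it when late L2 replicate 2 (-0.45) or 5 (-0.50), or early L3 replicate 4 (-0.48) or 5 (-0.50), was left out. *ITP* was below it when late L2 replicate 1 (0.49), or early L3 replicate 1 (0.49) or 2 (0.50), was left out.

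The later change was compared with the earlier change in a test of their difference. By limma 0 hormone genes were called in either direction, where 18.4% of all entries were called lower and 6.5% higher. At an unadjusted p under 0.05 the difference was positive in 2 genes, *Dh31* (0.52, limma adjusted p = 0.0649) and *CCHa2* (0.34, limma adjusted p = 0.0821). On the recovered reads edgeR called 1 gene higher, *Dh31*, and DESeq2 called 3, *Dh31*, *CCHa2* and *ITP*. Of all 9787 entries, edgeR called 799 higher and DESeq2 984. Without late L2 replicate 1 or replicate 2, limma called *Dh31* as well (0.64 and 0.70), and without late L2 replicate 4 it called *ITP* (0.67).

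Summed over the 10 genes, hormone transcripts made up 232 ± 18.3 CPM in early L2, 175 ± 14.3 CPM at the end of this instar and 161 ± 2.83 CPM after entry into L3. The 6 genes called lower, grouped after their values were seen, contributed 56.5% ± 1.88 of this sum in early L2. Their share was 46.7% ± 3.19 in late L2, and it was 37.8% ± 1.99 in early L3. The other 4 genes summed to 101 ± 7.82, 93.2 ± 5.28 and 100.4 ± 3.57 CPM at these stages. These shares describe the groups and were not tested.

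**Figure D3:**
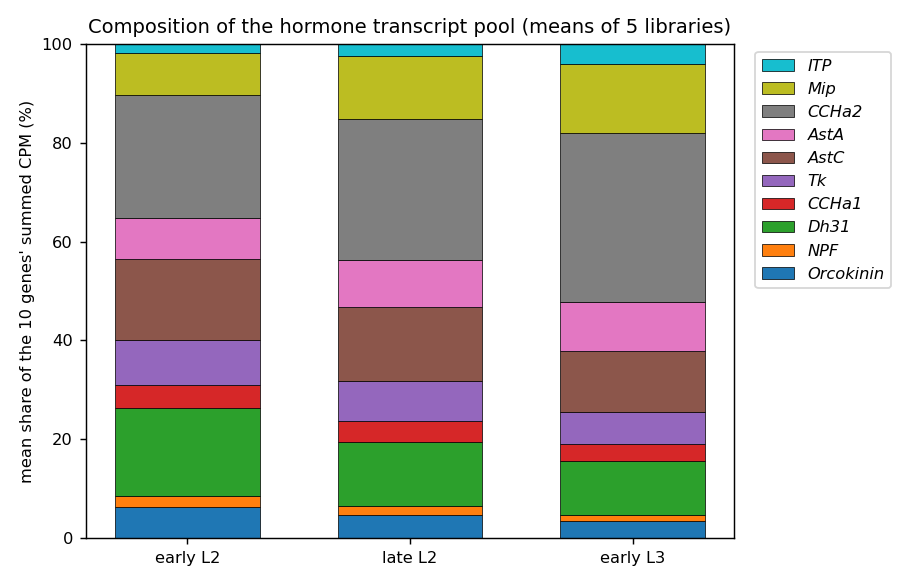
Mean share (%) of each gene in the summed CPM of the 10 hormone genes at each stage, over 5 libraries per stage. The 6 lowest segments, from *Orcokinin* to *AstC*, shrink from 56.5% of the sum in early L2 to 37.8% in early L3. Shares are not corrected for transcript length.

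Levels of different genes were compared per kilobase of exon. The length was that of all annotated exons of a gene merged, 4686 bases for *ITP* over 5 transcripts and 599 for *NPF*. A single transcript can be shorter. Before this division *ITP* had a mean of 6.56 CPM in early L3, against 5.39 for *CCHa1*, 5.52 for *Orcokinin* and 2.02 for *NPF*. Its rank in early L3 therefore depends on the length used. In early L2 *CCHa2* was the most abundant, at 40.0 ± 6.08 CPM per kb, followed by *Dh31* at 31.8 and *AstC* at 31.6 CPM per kb, which did not differ beyond their spread. *Mip*, *Tk*, *AstA* and *CCHa1* formed a middle group between 12.6 and 13.9 CPM per kb, whose members differed by less than their spread. *Orcokinin* at 9.63 and *NPF* at 8.96 CPM per kb differed by less than the spread of *NPF*, and *ITP* was last at 0.889 CPM per kb. Late L2 kept *CCHa2* first at 34.3 CPM per kb, with *AstC* second at 21.7 CPM per kb and *Dh31* at 17.6 and *Mip* at 15.9 CPM per kb, which differed by less than the spread of *Dh31*, after it. *AstA* at 11.4 CPM per kb came next, then *Tk* at 8.84 and *CCHa1* at 8.53 CPM per kb, alike within their spread, as were *Orcokinin* at 5.57 and *NPF* at 5.25 CPM per kb, and *ITP* was again last at 0.924 CPM per kb. In early L3 *CCHa2* was still first at 37.8 CPM per kb. *AstC* at 16.4 and *Mip* at 16.1 CPM per kb were next and within their spread of each other, ahead of *Dh31* at 13.6 and *AstA* at 11.1 CPM per kb. *Tk* at 6.63 and *CCHa1* at 6.29 CPM per kb were alike within their spread, as were *Orcokinin* at 3.71 and *NPF* at 3.37 CPM per kb, and *ITP* reached 1.40 CPM per kb.

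Within a stage, the same few libraries were often lowest or highest for the 6 genes that fell. Late L2 replicate 4 had the lowest late L2 level in 5 of the 6, all but *Tk*, and late L2 replicate 2 had the highest in 5 of the 6, all but *CCHa1*. On the first principal component these 2 libraries were the late L2 libraries nearest to early L3 (-5.63) and farthest from it (-24.6). Early L2 replicate 5 had the lowest early L2 level in 5 of the 6 genes, all but *NPF*, and had the highest score of the early L2 libraries, at -20.8. Early L3 did not show this order: replicate 1, nearest to L2 at 31.6, was the highest in 0 of the 6 genes, replicate 2, farthest from L2 at 59.4, was the lowest in 1, and replicate 4, at 53.3, was the lowest in 4. Fat body and hemocyte markers summed to 48.8 CPM in late L2 replicate 4. They summed to 90.1, 28.3 and 44.6 CPM in early L3 replicates 1, 2 and 4. With 5 libraries per stage, no relation was tested.

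Receptors of these hormones were also measured in the midgut, and 8 of the 11 receptors listed were tested. Between early L2 and early L3, 6 of the 8 fell and the other 2 were not called, against 24.3% of all entries called lower, and the median was -0.74 against -0.15 over all entries. *NPFR*, the receptor of neuropeptide F, fell from 4.61 ± 0.921 to 1.57 ± 0.348 CPM (log2 fold change -1.30, limma adjusted p = 3.11e-06). *AstA-R2*, an allatostatin A receptor, fell from 30.3 ± 4.42 to 13.04 ± 1.32 CPM (-1.18, limma adjusted p = 5.2e-07), although *AstA* itself was not called. *TkR99D*, a tachykinin receptor, changed by -0.94 (limma adjusted p = 5.54e-05), and *SPR*, the receptor shared by *Mip* and sex peptide, by -0.84 (limma adjusted p = 6.13e-05). The 2 receptors not called were *Dh31-R* at -0.05 and *CCHa1-R* at -0.05. *CCHa2-R*, among those that fell, reached 0.5 CPM in early L2 only, so it passed the filter through the stage where it was highest. The sum over the list ran from 90.6 ± 8.26 CPM in early L2 to 59.0 ± 3.06 CPM in early L3.

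Genes that process and release peptides were measured next. Of 16 tested, 10 were called lower and 2 higher between early L2 and early L3, against 24.3% and 9.86% of all entries, with a median of -0.69 against -0.15. The convertase *amon*, which cuts prohormones, went from 28.4 ± 3.24 to 16.8 ± 1.28 CPM (-0.74, limma adjusted p = 1.21e-06), and *7B2*, its helper protein, from 17.4 ± 2.01 to 8.48 ± 0.408 CPM (-0.99, limma adjusted p = 7.48e-06). *Sytalpha*, a synaptotagmin, fell from 9.71 ± 0.619 to 3.43 ± 0.433 CPM (-1.38, limma adjusted p = 7.74e-08). The amidating lyases moved in opposite directions: *Pal2* fell from 29.7 ± 2.71 to 14.6 ± 0.817 CPM (-0.998, limma adjusted p = 2.72e-07), while *Pal1* rose from 16.2 ± 0.749 to 25.5 ± 2.05 CPM (0.63, limma adjusted p = 2.66e-07). The other gene that rose was *svr*, a carboxypeptidase that trims peptide ends, from 55.1 ± 2.85 to 97.2 ± 6.81 CPM (0.81, limma adjusted p = 5.46e-08). *Phm*, which catalyzes the first step of amidation, was at 49.5 ± 2.85 and 46.1 ± 1.33 CPM (-0.10, limma adjusted p = 0.0689). *Syt1* and *nSyb*, both called lower, belong to this list and to the list of neuron markers.

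Other peptide hormones were a mixed group. Of 38 listed, 23 were in the table and 13 were tested, of which 4 fell and 1 rose between early L2 and early L3. These counts lay near the shares of all entries (24.3% and 9.86%), with a median of -0.02 against -0.15. *Ms*, *Capa*, *Proc* and *Ilp6* reached 0.5 CPM in early L3 only, so they passed the filter through that stage. Their log2 fold changes were 0.21, 0.15, 0.51 and 0.16, and none was called. The counts and the median of this list therefore depend in part on the filter. *CNMa*, the precursor of CNMamide, a peptide also made in the adult gut, went from 10.9 ± 1.25 to 3.21 ± 0.633 CPM (-1.63, limma adjusted p = 2.1e-07). *Lst*, the precursor of limostatin, which suppresses insulin release, went from 4.81 ± 0.637 to 1.24 ± 0.759 CPM (-1.70, limma adjusted p = 7.31e-06). *sNPF*, short neuropeptide F, went from 9.76 ± 1.03 to 4.98 ± 0.487 CPM (-0.90, limma adjusted p = 2.45e-06). *Nplp4*, a precursor listed as neuropeptide-like, rose from 1.77 ± 1.26 to 21.6 ± 4.01 CPM (3.50, limma adjusted p = 1.21e-06).

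Among regulators of endocrine fate, 3 of 7 tested fell and the other 4 were not called between early L2 and early L3, against 24.3% of all entries called lower, with a median of -0.35 against -0.15. *pros*, the homeodomain factor that marks enteroendocrine cells, fell from 9.89 ± 1.27 to 4.12 ± 1.05 CPM, and most of this decrease came by late L2, at 5.29 ± 1.49 CPM (early L3 versus early L2, -1.19, limma adjusted p = 2.3e-05). *Ptx1*, a homeobox gene, was at -0.35 (limma adjusted p = 8.67e-06), under the minimum size. *tap* (-0.69, limma adjusted p = 0.000306) and *Poxn* (-0.68, limma adjusted p = 0.00196) fell from means under 1 CPM. *tap*, and *dimm*, which was not called, reached 0.5 CPM in early L2 only, so they passed the filter through that stage. Of 5 sensors of nutrients and stretch tested, 1 fell, no larger a share than the 24.3% of all entries: the cation channel *TrpA1* (-0.78, limma adjusted p = 0.000322). *Piezo*, a stretch-activated channel, was at -0.21 (limma adjusted p = 0.0443), the ionotropic receptor *Ir25a* at -0.33 (limma adjusted p = 0.104) and the gustatory receptor *Gr28b* at -0.19 (limma adjusted p = 0.309).

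**Figure D4:**
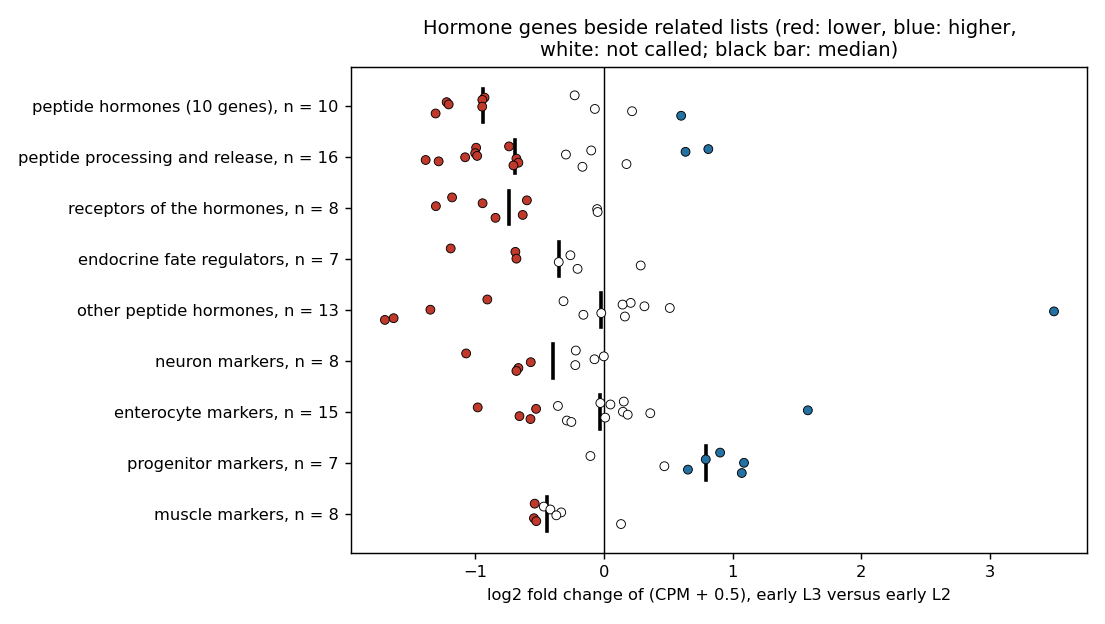
Log2 fold change of (CPM + 0.5) between early L2 and early L3 for each tested gene of 9 lists, with a black bar at the median of each list. Red points were called lower, blue points higher and white points were not called. Medians were -0.93 for the hormones, -0.69 for processing and release, -0.74 for receptors and -0.03 for enterocyte markers. They were -0.35 for endocrine fate regulators, -0.02 for other peptide hormones, -0.39 for neuron markers, 0.79 for progenitor markers and -0.44 for muscle markers.

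Markers of other cells of the preparation moved in several directions, and their part in the hormone results was not tested. Their counts between early L2 and early L3 stand beside 24.3% of all entries called lower, 9.86% called higher and a median of -0.15. Of the 15 enterocyte markers, all tested, 4 fell and 1 rose between early L2 and early L3, with a median of -0.03, and their summed level ranged from 10658 to 13083 CPM in early L2, from 9865 to 11103 CPM in late L2 and from 11646 to 14949 CPM in early L3. The most abundant were the proteases *deltaTry*, at 3669 ± 627 CPM in early L2 and 4733 ± 918 CPM in early L3, and *Jon65Aiii*, at 1980 ± 278 and 2263 ± 417 CPM, and the brush border myosin *Myo61F*, at 1424 ± 54.1 and 1477 ± 94.9 CPM, and none of these was called. Of 7 progenitor markers tested, 5 rose and the other 2 were not called. *esg*, the progenitor zinc finger factor, went from 2.68 ± 0.564 to 5.41 ± 0.675 CPM, *zfh2*, another zinc finger factor, from 2.15 ± 0.374 to 5.07 ± 0.836 CPM, and *Egfr*, the growth factor receptor, was at 17.6 ± 1.67 and 24.6 ± 1.37 CPM (0.47, limma adjusted p = 1.19e-05), under the minimum size. The sum of the progenitor list ran from 24.4 to 29.4 CPM in early L2, from 34.0 to 37.0 CPM in late L2 and from 38.2 to 46.1 CPM in early L3.

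Neuron markers are of interest because many of the 10 hormones are also neuropeptides. Of 8 tested, 4 fell and the other 4 were not called, with a median of -0.39. *brp*, which builds synaptic active zones, went from 4.91 ± 0.997 to 2.23 ± 1.31 CPM (-1.07, limma adjusted p = 0.000653), *nSyb*, a synaptic vesicle protein, from 2.94 ± 0.528 to 1.89 ± 1.38 CPM (-0.66, limma adjusted p = 0.031), and the defining marker *elav* was at 5.52 ± 0.532 CPM in early L2 and 4.70 ± 0.768 CPM in early L3 (-0.22, limma adjusted p = 0.183). Their sum was 17.2 to 22.1 CPM in early L2 and 10.4 to 14.6 CPM in late L2. In early L3 it was 9.70 to 10.96 CPM in 4 libraries and 25.8 CPM in replicate 2. That library held 2.19 CPM of *NPF* (early L3 range 1.64 to 2.30), 5.85 CPM of *CCHa1* (4.18 to 5.85) and 5.88 CPM of *Orcokinin* (4.69 to 6.29). It held 16.7 CPM of *Dh31* (16.1 to 20.6), 18.2 CPM of *AstC* (18.1 to 21.8) and 9.67 CPM of *Tk* (9.67 to 11.2). A contribution of neurons to the hormone levels was not tested. Of 8 muscle markers 3 fell and 5 were not called, with a median of -0.44. *Mhc*, muscle myosin, fell from 1767 ± 215 to 1215 ± 108 CPM, whereas *Act57B* at -0.47 and *Mlc2* at -0.41 were under the minimum size, and the sum of the list ran from 5122 to 7687 CPM in early L2 and from 4270 to 5003 CPM in early L3. Of 5 fat body and hemocyte markers 3 rose, *Lsp1alpha*, *Hml* and *NimC1*, which all reached 0.5 CPM only after early L2. *Lsp1alpha* ranged from 0 to 55.1 CPM in early L3, so its stages overlapped. *Lsp2* was not called (2.31, limma adjusted p = 0.105). *Lsp1alpha* and *Lsp2*, larval serum proteins of the fat body, were at 0 in all early L2 libraries. *Pxn*, a hemocyte peroxidase, was at 3.63 ± 0.198 CPM in early L2 and 4.29 ± 1.28 CPM in early L3. The sum of this list was 3.46 to 3.95 CPM in early L2, 3.41 to 5.56 CPM in 4 late L2 libraries and 48.8 CPM in late L2 replicate 4, and 5.63 to 90.1 CPM in early L3. Ring gland markers, of which *Akh* and *nvd* were in the table, summed to at most 0.460 CPM in any library. Of 5 Malpighian tubule markers, 2 were tested and neither was called, and their sum of 35.9 to 63.2 CPM was nearly all *Irk1*, a potassium channel.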

How the data were processed

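mRNA was sequenced from pooled *w1118* larval midguts, in 15 libraries of 3 stages. Genome build BDGP6 is named in the submitters' processing notes, along with STAR 2.7.10a, Trim Galore 0.6.7, DESeq2 and Salmon 1.5.2, and the annotation release is not given in the sources used here. The authors deposited CPM, and a sheet of their own log2 fold changes and adjusted p-values, which was not used. Dividing each CPM column by the value of 1 read gave whole reads (within 0.001) for 100% of 166854 values above 0. Median totals by stage were 28154986, 29076416 and 30301467 reads, from the earliest to the latest. Coordinates and exon lengths came from Ensembl 115 (BDGP6.54), in which 12094 identifiers were found.

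Entries reaching 0.5 CPM in 1 or more libraries (9787) were tested by limma 3.58.1 in R 4.3.3 on log2(CPM + 0.5), with 1 fit, an intensity trend, no block, and Benjamini-Hochberg adjustment over all entries within each comparison. On the recovered reads, edgeR 4.0.16 called 3392 entries for early L3 versus early L2 and DESeq2 1.42.0 called 3403. Alternatives covered pseudocounts, filters, scalings, tools, the variance model, a block and libraries left out. The fit was also run on simulated reads, with the same variability setting for every gene and equal numbers of rises and falls. That setting is simpler than these libraries, so the run checks the code only.

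The hormone genes and all gene lists were chosen with earlier results of these data known. Named genes were the 10 hormones, the 4 genes of each related list with the smallest adjusted p for early L3 versus early L2, and enteroendocrine markers. From marker lists of other cells the rule takes the 3 highest genes, which were not all printed for the Malpighian tubule. *Dh31-R*, *CCHa1-R*, *CCHa2-R*, *Syt1* and *CG4622* were named after their values were seen. The same holds for *dimm*, *Ms*, *Capa*, *Proc*, *Ilp6*, *Hml* and *NimC1*. P-values measure the spread between 5 pools per stage.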

Additional observations from a re-analysis of the deposited data

Results flagged for a closer look

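In early L3, the *CCHa1* level of replicate 4, 4.18 CPM, lay apart from the other 4 libraries, which held 5.49 to 5.85 CPM. The gap to its nearest neighbor was 0.782 of the range of the group, above Dixon's critical value of 0.71. A total of 30 groups of 5 libraries were examined, 1 was picked out, and chance picks out about 1 in 20.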

How the results depend on the processing

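Between early L2 and early L3, 6 hormone genes were called lower under every alternative run except with no minimum size, which added *AstA* (7 genes), and no fold change of a called gene turned its sign. With no minimum size, 4180 of all 9787 entries were called lower and 2181 higher in this comparison. Minimum size decided most lost calls. With a pseudocount of 4, 2 genes were called lower during L2 (median -0.39), 0 were called lower and 0 higher between late L2 and early L3 (median -0.26), and 0 were called higher between early L2 and early L3 (median -0.65). Over all entries that pseudocount gave 276 lower during L2. It gave 1175 lower and 423 higher between late L2 and early L3, and 679 higher between early L2 and early L3. Between late L2 and early L3, 0 genes were called lower with median-ratio scaling (median -0.22), TMM (-0.24), edgeR (-0.25) or DESeq2 (-0.24), and 6 with no minimum size. Over all entries, 1283, 1316, 1441 and 1406 were called lower with these scalings and tools, and 3626 with no minimum size. Between early L2 and early L3 the medians with these scalings and tools were -0.79, -0.78, -0.81 and -0.81, and 2 genes were called higher with no minimum size. For the difference between the later and earlier change, median-ratio scaling, TMM and edgeR each called 1 gene higher (medians 0.29, 0.26 and 0.26) and DESeq2 called 3 (0.30). Of all 9787 entries, these runs called 947, 861, 799 and 984 higher.

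Leaving out each library of the stages compared gave 0 to 2 genes lower and 0 to 1 higher between late L2 and early L3, with medians from -0.42 to -0.29. For the difference of changes it gave 0 to 1 higher, with medians from 0.0554 to 0.272, and a run lacking both late L2 replicate 4 and early L3 replicate 1 gave 0.0513. Without the 4 libraries high in fat body markers, 0 genes were called higher between late L2 and early L3 or between early L2 and early L3 (median -0.87). Among single genes, 621 of 660 values kept their side of the threshold. The correlations of same-numbered deviations ranged from -0.18 to 0.21. Differently numbered libraries were not compared, so whether replicate numbers pair the libraries was not decided. With the replicate block, 1 hormone gene was called higher for the difference of changes, where 626 of all 9787 entries were, and no other hormone count moved. *NPF* and *ITP* had the fewest reads, and the standard error of the fold change was largest for *ITP* (0.142) among the 10 genes, followed by *Orcokinin* (0.122), *Dh31* (0.12) and *NPF* (0.118).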
